A study of Mus musculus with 12 samples.

Results

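The genes described here are the mouse protein-coding genes whose symbol is Zfp followed by a number, the mouse name for zinc finger protein genes. They were taken by that rule from the union of 4 deposited expression tables, which gave 134 Zfp genes among 9338 genes of any kind and 6886 protein-coding genes. The GENCODE M21 annotation of the mm10 genome holds 394 protein-coding genes with such a symbol, so 34.0% of them appeared in at least 1 table, beside 31.3% of all 22028 annotated protein-coding genes. Of the 134 genes, 66 stood in 1 table, 61 in 2, 5 in 3 and 2 in all 4.

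RNA was sequenced from mouse lung cells selected with beads against CD31 (Pecam1), an endothelial surface protein, in 4 groups of 3 mice with 1 library per mouse. All animals were male C57Bl/6J mice carrying floxed Tet2 (TET2fl/fl) and all received tamoxifen at 40 mg/kg on 3 days when aged 6 to 8 weeks. TET2 KO mice also carried Cdh5-CreERT2, a tamoxifen-inducible Cre driven by an endothelial promoter, while WT mice were Cre-negative. Mice ate chow with 13% of energy from fat or a high-fat diet (HFD) with 60% of energy from fat for 20 weeks, and lungs were taken at 30 weeks of age. The groups were WT chow, TET2 KO chow, WT HFD and TET2 KO HFD. The study compared them in pairs to ask what endothelial loss of the DNA demethylase TET2, and diet, did to the transcriptome.

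Each table listed only genes that the authors' own test had placed at an unadjusted p under 0.05 in that pair of groups. A listed gene therefore had to differ, and counts of called Zfp genes, also those for lists and runs of neighbours, are to be read against the called share of all genes of the same table, given with each comparison. Library depth, worked out from the counts beside the FPKM values, was 36721391 to 56789100 assigned reads, the highest in WT HFD replicate 1. Tet2 itself was listed only for WT HFD against WT chow, at 4503 ± 230 (SD, n = 3) against 3533 ± 179 normalized counts. It was not listed for TET2 KO against WT on either diet, so the authors' test gave it no unadjusted p under 0.05 there. Its level in the TET2 KO libraries is not given, so the size of any difference could not be checked. Endothelial markers were present, and all 15 of a list of 15 were listed as higher in WT HFD than in WT chow. Markers of macrophages and lung epithelium were present as well, so the bead-selected cells were not endothelium alone. In WT HFD against WT chow, 7 of 12 macrophage and monocyte markers and 7 of 15 epithelial markers were listed. In WT chow these summed to 1706 to 3134 and 4395 to 5913 FPKM, beside 350.3 to 896 for the endothelial ones. Sums over different genes do not give the share of each cell type. In such bulk RNA, fewer cells of a type and less RNA per cell cannot be told apart.

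Zinc finger proteins of the C2H2 class hold a row of short loops, each folded around a zinc ion by paired cysteines and histidines, and a row of such fingers reads a DNA sequence. Many mouse members carry a KRAB domain at the amino end, which recruits the corepressor Trim28 (KAP1) with histone methyltransferases and heterochromatin proteins to silence retroelements and their neighbouring genes. Others lack the domain and act as promoter-binding activators, developmental repressors or cofactors, and a few with CCCH fingers bind RNA. KRAB genes lie in clusters that grew by local duplication, and the clusters are themselves known to be covered by heterochromatin.

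By translation of the annotated transcripts, 122 of the 134 genes encoded at least 3 C2H2 fingers, 6 encoded 1 or 2 and 6 encoded none, and the median was 10.5 fingers with a maximum of 36. A KRAB letter pattern was found in 68 and not in 66. Members with the pattern are called KRAB genes below. A KRAB domain with other letters is missed by it, so genes without the pattern may still carry the domain. Over the whole annotation, 637 protein-coding genes had at least 3 fingers and 285 of those had the KRAB pattern. Near-identical relatives limit the counts of some members: in 24 of the 134, at least 10% of the 100-base windows of the transcripts occurred in another gene, and the exons of 38 overlapped exons of another gene.

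Most Zfp genes were expressed at low levels. Averaged over the libraries in which it was listed, the median Zfp gene stood at 1.95 FPKM (fragments scaled by gene length and library depth, comparable between genes), with quartiles of 0.548 and 5.46. There were 49 genes under 1 FPKM and 13 over 10 FPKM. Zfp36 stood far above the rest at 399 FPKM. It encodes tristetraprolin, a CCCH protein that speeds decay of mRNAs with AU-rich elements. Next came the BTB-domain gene Zfp131 at 22.7 FPKM, the single-finger gene Zfp706 at 22.5, Zfp710 at 15.3, Zfp263 at 14.9, Zfp146 at 14.7, Zfp362 at 13.0, Zfp800 at 12.4, Zfp296 at 10.8 and Zfp628 at 10.7. None of these 10 genes had the KRAB pattern. Among genes with the pattern, those of highest level were Zfp747 and, at 9.20 FPKM, Zfp809.

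Diet in WT mice listed the most members. In WT HFD against WT chow 109 Zfp genes were listed, 63 of them higher and 46 lower on HFD. At an unadjusted p under 0.05 in edgeR's quasi-likelihood test, 97 were called, 53 higher and 44 lower. Of all 7330 genes listed for this pair, 90.7% were called, 41.9% higher and 48.8% lower, so the called share of Zfp genes was near the background. The libraries of both groups did not overlap for 102 Zfp genes, beside 86.5% of all listed genes. The median log2 fold change of the listed Zfp genes was 0.41, against 0.36 for the other listed protein-coding genes and -0.33 for all listed genes. A change of more than 2-fold together with the call was reached by 22 Zfp genes (15 higher, 7 lower), beside 44.9% of all listed genes. The Benjamini-Hochberg adjusted p was under 0.05 for 10 members, 4 higher and 6 lower, beside 16.5% of all listed genes. edgeR was fitted on the listed genes alone, and how that selection bears on its p-values, adjusted or not, was not tested. The number called fell to 58 (27 higher, 31 lower) without WT HFD replicate 1 and to 61 (27 higher, 34 lower) without WT chow replicate 2.

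**Figure D1:**
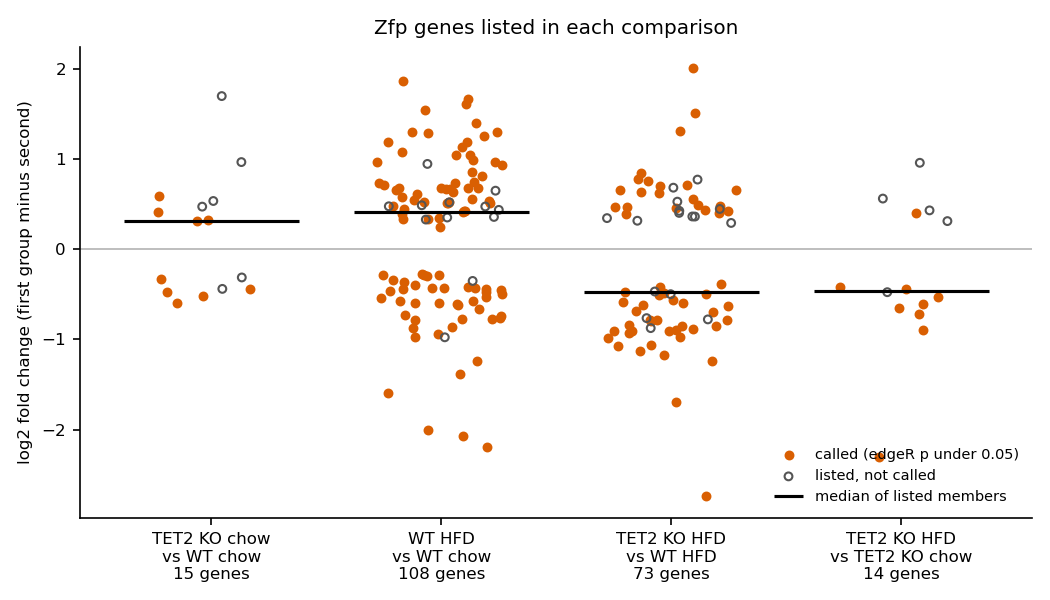
Log2 fold change (vertical axis, first group minus second) of each listed Zfp gene in the 4 comparisons. Filled points were called by edgeR at p under 0.05, open points were listed but not called, and bars are medians, which lay above 0 for TET2 KO chow against WT chow and WT HFD against WT chow and below 0 for both comparisons of TET2 KO HFD. Zfp988, at 0 in all WT HFD libraries, is not drawn.

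Direction in the diet comparison was counted by the KRAB pattern and by level. Of the 51 listed KRAB genes, 24 were higher and 27 lower on HFD, with a median log2 fold change of -0.30. Of the 58 listed genes without the pattern, 39 were higher and 19 lower, with a median of 0.44. By the mean normalized count (counts divided by the library's size factor), 19 of the 27 listed Zfp genes under 100 were higher and 8 lower, and 20 of the 27 between 100 and 400 were higher and 7 lower. At 400 or more, 24 were higher and 31 lower. The counts for other protein-coding genes of the table were 396 higher and 750 lower under 100, 610 and 355 between 100 and 400, and 2090 and 1181 at 400 or more. These splits describe listed genes and no test of them was run. Genes with little difference were mostly not listed, so a median here or in the other comparisons can change sign when few genes change side. The KRAB genes that were higher had a median of 0.67 and those that were lower -0.60. The other listed genes with at least 3 fingers and another kind of name counted 35 higher and 29 lower.

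**Figure D2:**
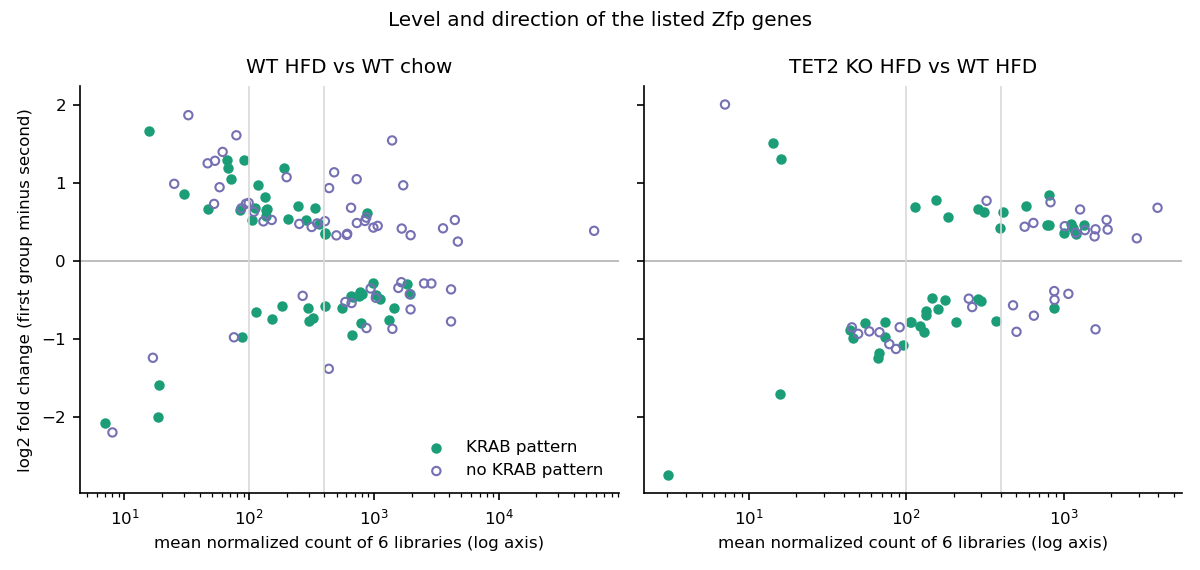
Mean normalized count over the 6 libraries (horizontal, log axis, with lines at 100 and 400) against log2 fold change (vertical) of the listed Zfp genes, for WT HFD against WT chow (left) and TET2 KO HFD against WT HFD (right). Filled points have the KRAB pattern. At 400 or more counts, 24 genes lay above 0 and 31 below on the left, and 23 above and 8 below on the right. Both panels use the same WT HFD libraries, and Zfp988 is not drawn.

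Zfp683 and Zfp366, both known from blood cells, rose on HFD in WT. Zfp683 encodes Hobit, a transcription factor of tissue-resident lymphocytes. Its normalized counts were 62.0, 46.5 and 45.0 in the WT HFD libraries and 23.8, 9.06 and 8.60 in WT chow, a log2 fold change of 1.86 ± 0.45 (SE). Zfp366 encodes DC-SCRIPT, a nuclear receptor cofactor known from dendritic cells. It read 2933, 1836 and 1456 on HFD and 442, 532 and 1165 on chow, a log2 fold change of 1.54 ± 0.42. The groups did not overlap for either gene, as the rule for large changes required. Both kept the call in each of 6 fits without 1 library. Of the list of 7 Zfp genes of immune cells these were the only ones listed in the diet table. Natural killer cell markers were higher as well: all 10 of that list were listed as higher on HFD, 9 of them called. Their summed level was 109 to 185 FPKM against 37.8 to 67.0. All 15 endothelial markers and 2 of 14 T cell markers were also listed as higher. Of 12 macrophage and monocyte markers 3 were higher and 4 lower. No dendritic cell markers were examined. The part of any of these cell types in the result was not tested.

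Zfp36 read 56373, 62310 and 78164 normalized counts in WT HFD and 48892, 47533 and 54339 in WT chow. All HFD libraries lay above all chow libraries, and the log2 fold change was 0.38 ± 0.15. The call was kept only in the fit without WT HFD replicate 1 and was lost without any other single library. Its paralogs Zfp36l1 and Zfp36l2 were not listed in any table.

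**Figure D3:**
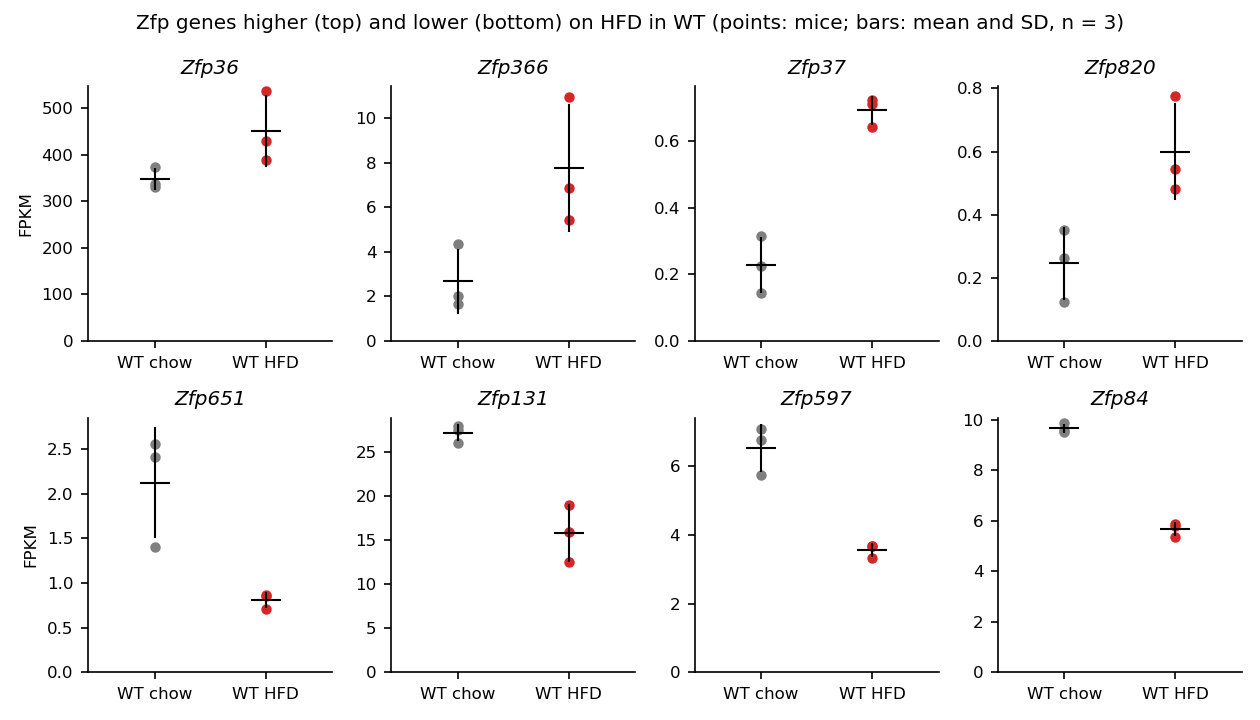
FPKM of 8 Zfp genes in the 3 WT chow and 3 WT HFD libraries. Points are mice and bars show the mean and SD. The upper 4 genes were higher on HFD and the lower 4 lower. The groups did not overlap in any panel, which the rule for large changes required of all but Zfp36.

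Further rises are given for genes that reached 50 normalized counts in WT HFD, the group where they were higher, so that several passed this minimum only there. Zfp37 read 124, 122 and 110 on HFD against 24.7, 38.5 and 53.7 on chow, a log2 fold change of 1.61 ± 0.31 with an edgeR Benjamini-Hochberg adjusted p of 0.0432. Zfp13 rose from 33.7 ± 3.72 to 88.6 ± 26.8 (SD, n = 3), Zfp9 from 52.9 ± 19.5 to 130 ± 29.0 and Zfp820 from 38.2 ± 18.03 to 93.5 ± 23.98, log2 fold changes of 1.39, 1.30 and 1.29. Zfp449 on chromosome X rose from 27.5 ± 7.75 to 65.2 ± 12.5. Zfp354a, a KRAB gene first described in kidney, rose from 41.1 ± 10.5 to 93.2 ± 9.87. Zfp820 lost its call without WT HFD replicate 2, and the other 5 genes of this paragraph were called in every fit leaving out 1 library. No library of these genes in WT HFD fell to the level of any WT chow library, which was a condition for naming them.

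Developmental regulators and imprint or retroelement silencers made up further groups. Of 9 developmental Zfp genes 3 were listed on the diet axis in WT and all 3 rose. Zfp503 (Nolz1), a developmental repressor, read 2865, 1965 and 1966 on HFD and 1015, 1142 and 1319 on chow, with an edgeR Benjamini-Hochberg adjusted p of 0.0438. Zfp467, a regulator of the choice between fat and bone precursor fates, read 592, 516 and 609 against 270, 257 and 373, with an edgeR Benjamini-Hochberg adjusted p of 0.0449. Their log2 fold changes were 0.97 ± 0.19 and 0.93 ± 0.19. Zfp423, an Ebf partner that marks precursors of fat cells, rose from 31.0 ± 11.6 to 75.2 ± 25.3 normalized counts and lost its call without WT HFD replicate 1.

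Of 7 silencing genes, 2 were listed in that comparison and they moved in opposite directions. Zfp57, which keeps methylation at imprinted regions, read 328, 251 and 212 on HFD against 98.0, 66.8 and 184 on chow, a log2 fold change of 1.18 ± 0.39. The call was lost without WT chow replicate 1 and without WT HFD replicate 1. Zfp568, a KRAB protein known to silence a placental transcript of Igf2, read 1173, 1069 and 1181 against 1867, 1741 and 1589. It fell by 0.60 on the log2 scale, with an SE of 0.11 and an edgeR Benjamini-Hochberg adjusted p of 0.0413.

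Of 12 broadly expressed Zfp transcription factors 4 were listed, all higher on HFD. Zfp143, a factor bound at many promoters and loop anchors, read 1011, 1087 and 877 against 743, 700 and 645, and Zfp148, which binds GC-rich elements, read 4129, 4372 and 3731 against 3054, 3106 and 3003. Log2 fold changes were 0.51 ± 0.13 and 0.42 ± 0.11, called in every fit that left out 1 library. Zfp462, a large chromatin regulator with 33 fingers, rose from 128 ± 68.7 to 270 ± 24.9 normalized counts and kept its call in 3 of the 6 such fits, losing it without WT chow replicates 1 or 2 or WT HFD replicate 2. Zfp507 stood at 849 ± 158 against 607 ± 120 and was not called. None of 7 Zfp genes with roles in RNA processing and splicing was listed in any table.

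Zfp984, a KRAB gene on chromosome 4, rose from 693 ± 38.6 to 1057 ± 82.2, with an edgeR Benjamini-Hochberg adjusted p of 0.0442. Among the genes of highest level, Zfp710 rose from 3641 ± 237 to 5232 ± 894 normalized counts, with the call kept in all 6 fits. Zfp362 stood at 1902 ± 159 on HFD and 1428 ± 233 on chow, a log2 fold change of 0.41 ± 0.15 called in 3 of 6 such fits, and not without WT chow replicate 2 or WT HFD replicates 1 or 2. Zfp706 differed little but evenly, at 5119, 5048 and 5098 against 4256, 4277 and 4330, and its call held in none of the 6 fits with 1 library left out. Zfp800 stood at 2263 ± 51.3 on HFD and 2764 ± 95.1 on chow and kept its call in 3 of the 6, losing it without WT chow replicates 1 or 2 or WT HFD replicate 1.

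Among members reaching 50 normalized counts on chow, the steepest fall on HFD was in the BTB-domain gene Zfp651. It read 211, 254 and 257 on HFD against 415, 708 and 758 on chow and fell by 1.38 on the log2 scale, with an SE of 0.25 and an edgeR Benjamini-Hochberg adjusted p of 0.0395. The BTB-domain gene Zfp131 read 2413, 3065 and 3673 against 5009, 5262 and 5391 and fell by 0.78, with an edgeR Benjamini-Hochberg adjusted p of 0.0473. Zfp296, known as a partner of Klf4, read 472, 701 and 681 against 1137, 967 and 1258, though 11.5% of its transcript windows occur in another gene. In none of these did a HFD library reach the chow range, which the rule for large changes required. All 3 kept the call whichever library was left out.

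KRAB genes with large falls were Zfp599, from 116 ± 19.04 to 59.0 ± 5.80, Zfp948, from 871 ± 203 to 452 ± 72.0, and Zfp619, from 995 ± 84.1 to 575 ± 67.8. Zfp84 fell with little spread, at 923, 994 and 1015 against 1692, 1641 and 1639, with a log2 fold change of -0.76 ± 0.10 and an edgeR Benjamini-Hochberg adjusted p of 0.038. Zfp597 fell from 1812 ± 185 to 991 ± 53.9, with the same edgeR Benjamini-Hochberg adjusted p of 0.038; 21.9% of its windows occur in another gene. The KRAB gene Zfp988, just above detection on chow at 4.76, 11.3 and 3.22 normalized counts, had no read in any WT HFD library. Against a floor of 3 counts over the group it was at least 6.94-fold lower on HFD. This floor covers counting error only, and 42.9% of the windows of Zfp988 occur in another gene.

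The corepressor of the KRAB proteins and its partners were listed beside them. Of 30 genes of this machinery, 9 were listed in WT HFD against WT chow, 5 higher and 4 lower, and all 9 were called, near the 90.7% of all listed genes. Trim28 fell from 10866 ± 880 to 8548 ± 574 normalized counts, the chromatin remodeller Chd4 from 27155 ± 2271 to 18614 ± 1142, the HUSH complex member Mphosph8 from 1536 ± 81.8 to 1070 ± 116 and its partner Morc2a from 3228 ± 57.1 to 2578 ± 5.33. The HUSH member Pphln1, the heterochromatin protein Cbx3, Morc3, Mta1 and Smarcad1 rose, with log2 fold changes of 0.29 to 0.46. The median of the 9 was 0.29, so the list as a whole had no single direction.

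Markers of cell types moved with diet as well. The 15 endothelial markers had a median log2 fold change of 1.56. Their summed level was 1108 to 1983 FPKM in WT HFD against 350.3 to 896 in WT chow. Of 12 macrophage and monocyte markers 7 were listed, 3 higher and 4 lower, at a summed 985 to 1746 FPKM against 1706 to 3134. Ccr2, Csf1r and Ly6c2 were higher and Chil3, Marco, Mrc1 and Siglecf lower, so the sum does not stand for each marker. The part of these cell types in the Zfp changes was not tested.

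Some listed Zfp genes were neighbours on a chromosome. Joining members less than 500 kb apart gave 6 runs of at least 4 members, with 38 of the 134 members in all. Only listed genes were joined, so unlisted Zfp genes between them are not seen. How many annotated Zfp genes would fall in such runs was not counted. On chromosome 13 (mm10, chr13:67121660-67637791) 8 KRAB genes were listed for WT HFD against WT chow. Zfp457, Zfp456, Zfp874b, Zfp87, Zfp748, Zfp729b and Zfp729a were lower on HFD and Zfp759 was higher, all 8 called, with a median of -0.52. On chromosome 7 (chr7:29768552-30169750) 8 genes, 7 of them with the KRAB pattern, were listed. Zfp84, Zfp790, Zfp940, Zfp568, Zfp566, Zfp382 and Zfp146 were lower and Zfp14 was higher, again all called, with a median of -0.60. Zfp940 fell from 381 ± 49.5 to 223 ± 31.3 normalized counts and kept its call in every fit leaving out 1 library. Zfp566, from 191 ± 47.99 to 114 ± 28.5, lost its call without WT chow replicates 1 or 2 or WT HFD replicates 1 or 3. A second stretch of chromosome 7 (chr7:127233061-127885996) held Zfp553, Zfp747, Zfp668 and Zfp646, which were lower, and Zfp688, which was higher.

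Within the chromosome 13 run the sizes were alike except in Zfp457 and Zfp759. Zfp87 read 376, 519 and 421 on HFD against 747, 625 and 627 on chow, Zfp729a 914, 897 and 835 against 1157, 1147 and 1263, and Zfp748 622, 824 and 609 against 1013, 862 and 890. Log2 fold changes from Zfp456 to Zfp729a lay between -0.60 and -0.43. The barely expressed Zfp457 read 4.43, 7.40 and 10.7 against 16.2, 28.3 and 45.1. Zfp759 went the other way at 111, 92.0 and 87.8 against 44.7, 58.9 and 37.6. Every gene of the run was separate between the groups, but Zfp456, Zfp874b and Zfp729b share at least 10% of their transcript windows with other genes.

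Runs on chromosomes 17 and 4 had no common direction for diet in WT. On chromosome 17 (chr17:21488998-22225616) 9 KRAB genes appeared over all tables, of which 4 were listed for diet in WT: Zfp948 fell, while Zfp760, Zfp229 and Zfp820 rose, with log2 fold changes of 0.66, 0.81 and 1.29. The run at chr17:32795676-33033402 held Zfp811, Zfp799, Zfp472 and Zfp763. The run at chr4:147132038-147809788 held Zfp991, Zfp988, Zfp979 and Zfp984, and their counts are uncertain, with 73.8% of the windows of Zfp991, 42.9% of those of Zfp988 and 29.3% of those of Zfp984 found in another gene.

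**Figure D4:**
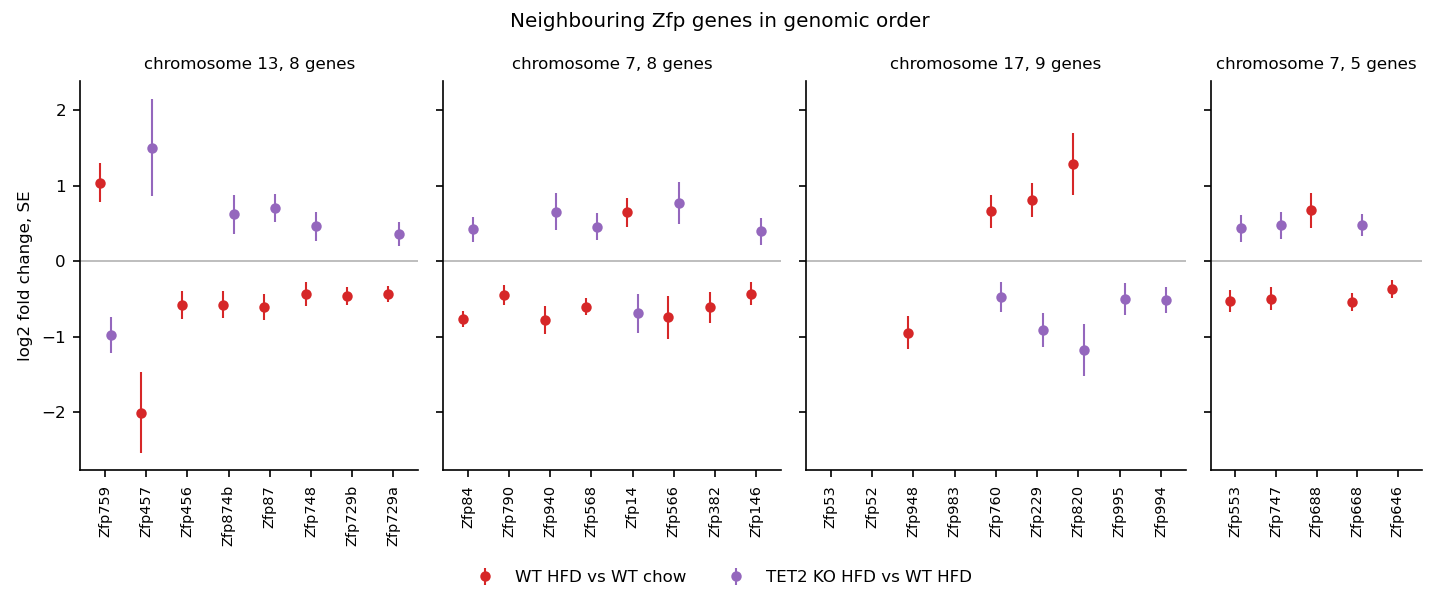
Log2 fold change with its SE (vertical axis) of neighbouring Zfp genes in genomic order, for WT HFD against WT chow and TET2 KO HFD against WT HFD. A missing point means that the gene was not listed. On chromosome 13, 7 of 8 genes lay below 0 for diet, and so did 7 of the 8 in the first chromosome 7 run; both comparisons share the WT HFD libraries.

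Of the 8 genes in each of the chromosome 13 run and the first chromosome 7 run, 5 and 6 hold a common stretch before their start, which is shown because most genes of these runs moved together and the stretch came to light when their promoters were set side by side. RefSeq gave the 250 bases before a transcription start (GRCm38.p6, the mm10 assembly) for 110 of the 134 Zfp genes. It gave none for Zfp87 and Zfp729b on chromosome 13 or Zfp568 on chromosome 7, so these were not searched. A RefSeq start can lie inside the gene span used for the runs, as for Zfp759. The letters GGGAANTGTAGT, or their reverse complement ACTACANTTCCC, were found in 18 of these 110 (16.4%), against 273 of 27025 genes (1.01%), and in 47 of all 336 Zfp genes with a promoter in that table. These letters are part of the longer element known to be bound by ZNF143, the human form of Zfp143. By the KRAB pattern, 15 of 59 members with it (25.4%) and 3 of 51 without it (5.88%) held a match. Over the whole table, KRAB genes held a match in 16.5% and other genes with at least 3 fingers in 3.15%, so a match is common to KRAB genes and not particular to the listed ones. The windows below give the match in capitals with up to 24 bases on either side, on the strand of the gene and ending before the start. For the chromosome 13 run they are
Zfp759 (chr13:67128152-67128211, plus strand): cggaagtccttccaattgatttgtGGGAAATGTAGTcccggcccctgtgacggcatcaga
Zfp457 (chr13:67306456-67306515, minus strand): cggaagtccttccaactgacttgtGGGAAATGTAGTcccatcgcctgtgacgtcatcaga
Zfp874b (chr13:67484254-67484312, minus strand): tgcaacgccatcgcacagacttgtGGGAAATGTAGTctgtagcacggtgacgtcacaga
Zfp748 (chr13:67553153-67553202, minus strand): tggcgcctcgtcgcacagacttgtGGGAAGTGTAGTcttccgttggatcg
Zfp729a (chr13:67637782-67637839, minus strand): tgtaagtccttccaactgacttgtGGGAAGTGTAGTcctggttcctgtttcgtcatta
and for the chromosome 7 run
Zfp84 (chr7:29768505-29768551, plus strand): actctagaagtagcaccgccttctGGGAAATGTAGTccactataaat
Zfp790 (chr7:29815944-29816003, plus strand): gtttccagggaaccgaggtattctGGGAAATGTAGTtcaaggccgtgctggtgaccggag
Zfp940 (chr7:29853650-29853709, minus strand): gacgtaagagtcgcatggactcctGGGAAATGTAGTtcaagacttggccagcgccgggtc
Zfp14 (chr7:30051397-30051434, minus strand): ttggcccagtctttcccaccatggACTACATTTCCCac
Zfp566 (chr7:30090551-30090610, minus strand): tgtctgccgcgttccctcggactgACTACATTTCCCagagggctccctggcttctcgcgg
Zfp146 (chr7:30169836-30169895, minus strand): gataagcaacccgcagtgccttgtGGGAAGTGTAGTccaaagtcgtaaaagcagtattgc

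Over the whole 250 bases, the longest identical run of Zfp759 and Zfp457 was 38 bases and that of Zfp457 and Zfp729a was 26, where the median pair of member promoters shared 8. The longest shared run, 105 bases, joined Zfp442 and Zfp937 on chromosome 2. Zfp759 and Zfp14, each higher on HFD, held the letters, as did several of their neighbours that were lower. Zfp456 and Zfp382, also lower, did not. The members' median was 12 CG in the 250 bases, against 6 over all genes of the promoter table, and 57.3% held at least 10 against 40.2%. Other listed genes lay higher: on HFD in WT the medians were 13 for members that were higher and 12.5 for members that were lower, against 15 and 14 for the other listed protein-coding genes.

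Genotype on HFD listed 73 Zfp genes, 33 higher and 40 lower in TET2 KO HFD than in WT HFD, with a median log2 fold change of -0.48 against -0.40 for the other listed protein-coding genes. edgeR called 57 at p under 0.05, 22 higher and 35 lower, beside 80.4% of the 3939 listed genes, 41.9% higher and 38.5% lower. The groups did not overlap for 58 members, beside 74.7% of listed genes, and 10 changed more than 2-fold together with the call, beside 29.1%. No member passed a Benjamini-Hochberg adjusted p of 0.05 in edgeR, nor did any listed gene (0.0%). At an unadjusted p under 0.05, DESeq2 called 68 members and limma 59. The listing itself rested on the authors' DESeq2 test at that threshold, so the DESeq2 count was nearly fixed by it and adds no support. The edgeR count was 36, 28, 18, 32 and 36 without TET2 KO HFD replicate 1 or 2 or WT HFD replicate 1, 2 or 3, in that order. The split between directions moved too, to 6 higher and 30 lower without TET2 KO HFD replicate 1, 7 and 29 without WT HFD replicate 3, and 28 and 24 without TET2 KO HFD replicate 3.

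By level, of members under 100 normalized counts 3 were higher and 17 lower, between 100 and 400 the split was 7 and 15, and at 400 or more 23 and 8. Other protein-coding genes split 337 to 187, 171 to 401 and 728 to 1099. KRAB genes were higher in 18 and lower in 24 cases, and genes without the pattern in 15 and 16. These values and those of the diet comparison share the WT HFD libraries and are not independent.

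Zfp354a fell in TET2 KO HFD, at 46.3, 35.1 and 36.0 normalized counts against 101, 95.1 and 82.0 in WT HFD, a log2 fold change of -1.24 ± 0.26. Zfp820 read 56.3, 38.2 and 28.4 against 84.2, 121 and 74.5, Zfp37 69.4, 53.1 and 39.3 against 123, 122 and 110, and Zfp105 49.3, 60.5 and 41.5 against 119, 86.7 and 111. Their log2 fold changes were -1.18 ± 0.35, -1.13 ± 0.28 and -1.07 ± 0.27. These 4 genes were separate between the groups, as the rule for large changes required, and kept the call without any single library. Zfp9 fell from 129 ± 28.6 to 61.3 ± 26.7 and lost its call without TET2 KO HFD replicate 2 or WT HFD replicate 1.

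Higher in TET2 KO HFD were Zfp619, at 1294, 1016 and 779 against 517, 651 and 550, and Zfp296, at 1150, 983 and 970 against 468, 701 and 677. Zfp87 read 822, 680 and 636 against 374, 519 and 418. Log2 fold changes were 0.85 ± 0.21, 0.75 ± 0.19 and 0.71 ± 0.18, called in all 6 fits with a library left out. Zfp566, at 195 ± 44.4 against 114 ± 28.5, lost its call without TET2 KO HFD replicate 1 or 2 or WT HFD replicate 3. Zfp418, at 141 ± 25.99 against 87.4 ± 16.9, kept it only without TET2 KO HFD replicate 3 or WT HFD replicate 2.

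Few members of the role lists were listed. Zfp366 stood at 1125 ± 690 against 2064 ± 758 and was not called. Zfp467 fell from 570 ± 47.4 to 384 ± 74.0, losing its call only without WT HFD replicate 3. Zfp57 fell from 262 ± 58.5 to 153 ± 43.1, called in 3 of 6 such fits and not without TET2 KO HFD replicate 2 or WT HFD replicate 1 or 2. Zfp143, at 765, 747 and 754 against 1004, 1087 and 872, kept its call only without TET2 KO HFD replicate 1 or WT HFD replicate 3. Zfp568, higher at 1564 ± 334 against 1136 ± 58.1, kept it only without TET2 KO HFD replicate 3. Zfp809, which silences integrated retroviruses through their primer binding site, stood at 1341 ± 92.1 against 1057 ± 118 and Zfp263 at 3207 ± 178 against 2625 ± 172, neither called.

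In the chromosome 13 run 6 of the 8 genes were listed for this comparison, 5 higher and 1 lower in TET2 KO HFD, with 4 of the 5 and the 1 called. The first chromosome 7 run likewise gave 6 genes, 5 higher and 1 lower, and the lower genes were Zfp759 and Zfp14. In the second chromosome 7 run Zfp553, Zfp747 and Zfp668 were higher and called. In the run at chr17:21488998-22225616, Zfp760, Zfp229, Zfp820, Zfp995 and Zfp994 were lower and 3 of the 5 were called. WT HFD is the reference here and the tested group in the diet comparison, so the 2 sets of signs share libraries and are not independent.

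Of the corepressor list 6 were listed, 5 higher and 1 lower, and 3 were called, all higher: Chd4, Mphosph8 and Suv39h1, with log2 fold changes of 0.52, 0.47 and 0.43. Endothelial markers moved as well: 13 of 15 were listed, all lower in TET2 KO HFD, with a median of -1.02 and a summed level of 543 to 978 FPKM against 1074 to 1924. Their part in the Zfp changes was not tested.

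On chow few members were listed. In TET2 KO chow against WT chow there were 15, 8 higher and 7 lower, with a median log2 fold change of 0.31 beside 0.35 for the other listed protein-coding genes. edgeR called 9, 4 higher and 5 lower, beside 74.7% of 1298 listed genes, 29.7% higher and 45.0% lower. With libraries scaled by TMM over the listed genes the split was 4 higher and 2 lower. The groups were separate for 13 members, beside 74.7% of listed genes. No called member changed more than 2-fold, beside 32.8% of listed genes. None passed an adjusted p of 0.05 in edgeR (0.0% of listed genes). At an unadjusted p under 0.05, DESeq2 called 14 members and limma 11, and the DESeq2 count was again nearly fixed by the listing. The edgeR count was 2 without TET2 KO chow replicate 1, 5 without replicate 3, 2 without WT chow replicate 1 and 1 without WT chow replicate 2.

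Zfp984 was the sole member whose call held without any single library, at 965, 819 and 893 normalized counts in TET2 KO chow and 636, 690 and 682 in WT chow, a log2 fold change of 0.42 ± 0.13. Zfp931 read 173, 132 and 172 against 90.4, 106 and 122, and Zfp148 and Zfp236 stood at 3672 ± 325 against 2949 ± 72.3 and 4817 ± 483 against 3880 ± 88.6. Lower were Zfp382 at 229 ± 20.6 against 346 ± 69.2, Zfp619 at 671 ± 155 against 962 ± 93.0, Zfp597 at 1255 ± 252 against 1751 ± 192, Zfp472 at 534 ± 43.3 against 723 ± 79.9 and Zfp52 at 778 ± 58.1 against 980 ± 51.1. Each of these 8 lost its call in 3 to 5 of the 6 fits with a library left out. For Zfp811 a single mouse decided the value. It read 364 in TET2 KO chow replicate 1, and 37.5 and 52.9 in the other libraries of the group, against 40.1, 52.3 and 48.2 in WT chow, and it was not called; without that library the log2 fold change went from 1.69 to -0.0505, and the median of the 15 listed members went to the same value.

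Other cell types moved with genotype on chow. Of 14 T cell markers 10 were listed, all higher in TET2 KO chow, at 267 to 369 FPKM against 158 to 251, while 4 of 15 lung epithelial markers, at 2363 to 3105 FPKM against 4300 to 5643, and 5 of 7 mesothelial markers, at 0.782 to 1.52 FPKM against 1.59 to 9.01, were listed as lower. Their part in the Zfp changes was not tested.

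Diet in TET2 KO mice gave 14 listed members, 5 higher and 9 lower in TET2 KO HFD than in TET2 KO chow, with a median log2 fold change of -0.46 beside -0.52 for the other listed protein-coding genes. edgeR called 9, 1 higher and 8 lower, beside 76.4% of 1628 listed genes, 29.2% higher and 47.2% lower. TMM scaling over the listed genes moved the median of all listed genes by 0.25, and the split among the members was then 5 higher and 2 lower, so directions here depend on the scaling. The groups were separate for 11 members, beside 72.6% of listed genes, and 1 called member changed more than 2-fold, beside 32.0%. None passed an adjusted p of 0.05 in edgeR, beside 0.0614% of listed genes. At an unadjusted p under 0.05, DESeq2 called 13 members and limma 8, and here too the listing nearly fixed the DESeq2 count. The edgeR count was 3, 3 and 4 without TET2 KO chow replicate 1, 2 or 3 and 2 and 5 without TET2 KO HFD replicate 1 or 2.

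Zfp128, a KRAB gene with 7 fingers, was lower at 84.2, 74.5 and 66.6 normalized counts in TET2 KO HFD against 148, 155 and 115 in TET2 KO chow, a log2 fold change of -0.89 ± 0.24, and was called in all 6 fits with a library left out. Zfp994 fell from 362 ± 59.5 to 237 ± 26.1, Zfp931 from 158 ± 22.3 to 101 ± 23.5 and Zfp105 from 79.7 ± 20.7 to 48.4 ± 9.11. Zfp809 was the 1 called gene that was higher, at 1323, 1186 and 1351 against 956, 1009 and 968. These 4 lost the call in 3 to 5 of the 6 fits. Zfp811 was again set by TET2 KO chow replicate 1, at 362 beside 37.8 and 52.6, and lost its call without it. Markers of several cell types moved in the same comparison. Macrophage and monocyte markers were listed as lower for 6 of 12 (4 called), at 2764 to 4960 FPKM against 5529 to 8295, and T cell markers for 5 of 14 (all called), at 118 to 161 FPKM against 187 to 255. Mesothelial markers were listed for 6 of 7, 5 higher and called and 1 lower, and fibroblast and smooth muscle markers for 5 of 12, all higher and 3 called, at 4.36 to 8.79 FPKM against 2.65 to 3.33. Their part in these values was not tested.

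For 8 members the tables together gave counts in all 12 libraries, so that the difference between genotype effects on the 2 diets could be tested directly, over the 975 genes for which this held. A gene enters only through being listed in tables that cover all groups, and 56.4% of the 975 were called (55.3% at an adjusted p under 0.05). Of the 8 members 7 were called, all at an edgeR Benjamini-Hochberg adjusted p between 0.0147 and 0.0337. This adjustment ran over the 975 selected genes only and not over all genes measured. All 7 were called in each of the 12 fits that left out 1 library, though these fits kept genes selected from all 12. The 7 genes fell into 2 kinds.

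In 3 genes the mean of TET2 KO stood below that of WT on chow and above it on HFD. Taken by diet, edgeR called both genotype differences for Zfp619 and Zfp597 and neither for Zfp408. Zfp619 (ENSMUSG00000068959, chr7:39517766-39540420, plus strand) is a KRAB gene with 33 fingers. It stood at 4.37, 3.73 and 3.89 FPKM in WT chow, 2.03, 3.19 and 3.17 in TET2 KO chow, 2.08, 2.61 and 2.21 in WT HFD and 5.14, 4.07 and 3.14 in TET2 KO HFD. WT chow lay above TET2 KO chow in every library, and TET2 KO HFD lay above WT HFD in every library. The interaction, the genotype difference on HFD minus that on chow, was 1.36 ± 0.33 on the log2 scale. Zfp597 (ENSMUSG00000039789, chr16:3858321-3884561, minus strand), whose human form is imprinted, went from 6.52 ± 0.690 to 4.69 ± 0.972 FPKM with TET2 KO on chow and from 3.55 ± 0.198 to 5.58 ± 1.15 on HFD, an interaction of 1.13 ± 0.30. Zfp408 (ENSMUSG00000075040, chr2:91643669-91649791, minus strand), whose human form is linked to an inherited disorder of retinal vessels, stood at 7.18 ± 0.656, 5.79 ± 0.427, 5.15 ± 0.655 and 6.98 ± 1.48 FPKM in WT chow, TET2 KO chow, WT HFD and TET2 KO HFD, an interaction of 0.75 ± 0.27.

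In the other 4 genes the mean of TET2 KO stood above that of WT on chow and below it on HFD. Taken by diet, edgeR called both genotype differences for Zfp931 and Zfp984 and neither for Zfp760. Zfp105 was called on HFD and was not listed for genotype on chow. Zfp931 (ENSMUSG00000078861, chr2:178067695-178078476, minus strand), a KRAB gene with 7 fingers, stood at 0.962, 1.15 and 1.33 FPKM in WT chow, 1.86, 1.44 and 1.86 in TET2 KO chow, 1.78, 1.71 and 1.62 in WT HFD and 1.04, 0.874 and 1.37 in TET2 KO HFD. No library of WT chow reached the range of TET2 KO chow, and none of TET2 KO HFD reached that of WT HFD. Its interaction was -1.22 ± 0.34, and 11.3% of its windows occur in other genes. Zfp984 (chr4:147753974-147809788) stood at 5.71 ± 0.316, 7.62 ± 0.559, 8.66 ± 0.659 and 5.71 ± 1.85 FPKM in WT chow, TET2 KO chow, WT HFD and TET2 KO HFD, an interaction of -1.02 ± 0.31, with the shared sequence given above.

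Zfp760 (chr17:21707741-21725636), with 16 fingers, stood at 0.607 ± 0.0861, 0.879 ± 0.133, 0.957 ± 0.122 and 0.689 ± 0.0270 FPKM in the same order, an interaction of -1.01 ± 0.31. Zfp105 (chr9:122923072-122931028), without the KRAB pattern, stood at 0.750 ± 0.209, 0.932 ± 0.239, 1.19 ± 0.194 and 0.566 ± 0.107, an interaction of -1.39 ± 0.43. On chow its groups overlapped. Zfp423 was the 1 member of the 8 without a called interaction, at -0.32 ± 0.60, with 0.133 ± 0.0490, 0.121 ± 0.0562, 0.320 ± 0.108 and 0.236 ± 0.0541 FPKM. The order of its groups put both HFD groups above both chow groups, with overlap between libraries of neighbouring groups.

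**Figure D5:**
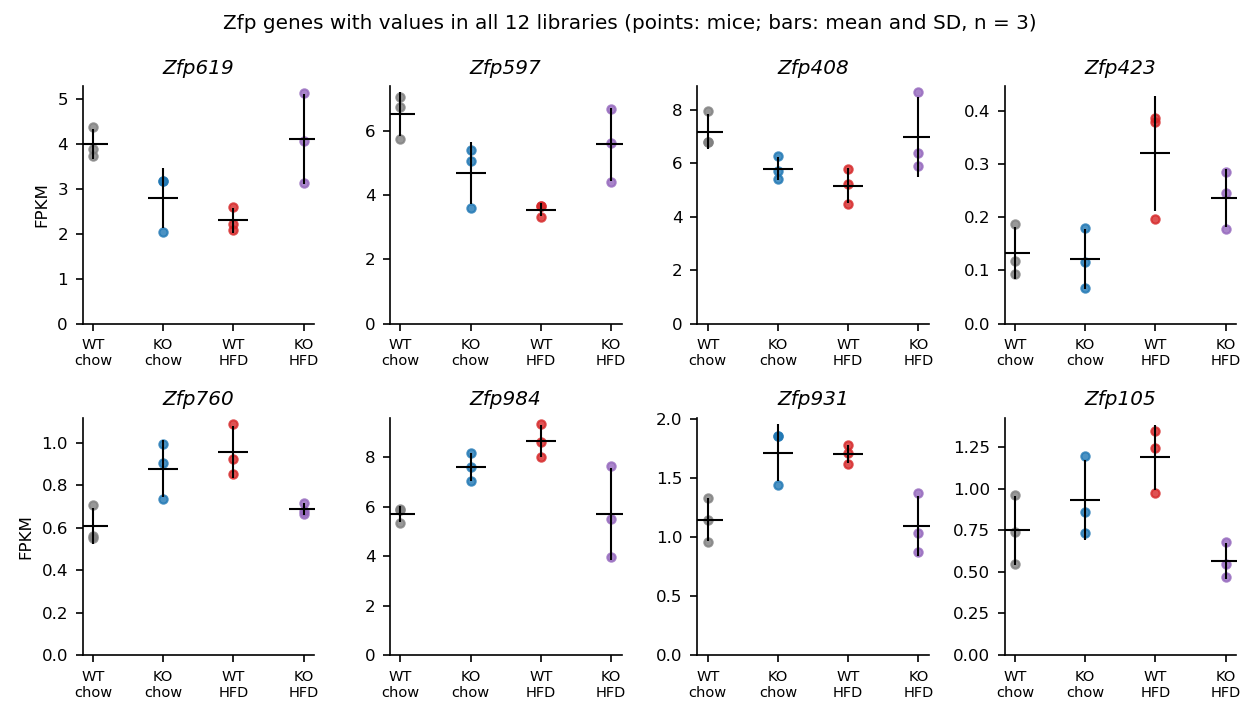
FPKM (vertical axis) of the 8 Zfp genes with values in all 12 libraries, by group. Points are mice and bars show the mean and SD. In Zfp619, Zfp597 and Zfp408, WT chow and TET2 KO HFD held the 2 highest means; in Zfp931, Zfp984, Zfp760 and Zfp105, TET2 KO chow and WT HFD held them.

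The promoters of Zfp619 and Zfp931 are shown because these were the 2 members listed in all 4 tables. The 250 bases before the start are given with CG in capitals.
Zfp619 (GRCm38.p6, chr7:39517516-39517765, plus strand): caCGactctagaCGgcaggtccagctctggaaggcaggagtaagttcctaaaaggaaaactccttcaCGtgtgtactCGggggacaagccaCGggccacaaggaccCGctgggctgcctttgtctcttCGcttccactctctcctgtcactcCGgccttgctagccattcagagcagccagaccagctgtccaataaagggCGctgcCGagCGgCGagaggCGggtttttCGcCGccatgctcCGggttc
Zfp931 (GRCm38.p6, chr2:178078426-178078675, minus strand): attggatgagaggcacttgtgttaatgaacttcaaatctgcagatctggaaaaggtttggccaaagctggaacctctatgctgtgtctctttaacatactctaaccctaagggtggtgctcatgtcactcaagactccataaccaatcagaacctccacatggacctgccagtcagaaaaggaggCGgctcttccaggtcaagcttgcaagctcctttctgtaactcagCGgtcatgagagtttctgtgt
Zfp619 held 16 CG and Zfp931 held 2. Of the other genes with values in all libraries, Zfp597 held 15, Zfp408 13, Zfp105 14, Zfp760 12, Zfp984 7 and Zfp423 18. Methylation was not measured in these libraries.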

How the data were processed

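Lung cells bound by CD31 beads gave 12 RNA libraries, and the members and gene lists were chosen with earlier results of these data known. Per the submitters' processing notes, the authors aligned reads with HISAT2 to mm10, counted them per gene with featureCounts and compared pairs of groups with DESeq2 (versions and strand setting not given in the sources used here). The 4 deposited tables hold, for genes at an unadjusted p-value under 0.05, raw read counts, a normalized signal (counts divided by DESeq2 size factors), FPKM, and the authors' own log2 fold changes with p-values, which were not used as results. Genes were tested here on the deposited counts with edgeR 4.0.16 (glmQLFit, glmQLFTest, robust) in R 4.3.3, on the 6 libraries of each pair, scaled by the size factors the authors had used, and called at p under 0.05. For the pairs, Benjamini-Hochberg adjustment ran over the 18463 to 23768 genes that the authors had adjusted, listed or not. The interaction used all 12 libraries, and its adjustment ran only over the 975 genes tested, all of them listed genes. Levels between genes are in FPKM, as the authors deposited it. DESeq2 1.42.0 and limma 3.58.1 (log2 of normalized signal plus 1 or 0.1) served as alternatives, beside library totals, TMM, a minimum mean of 10, a replicate block and leaving out each library. The fits were checked on simulated counts with a fixed spread and no selection by p. That check does not show how the selection of listed genes bears on the p-values given here. p-values measure the spread between mice. Named members were those called, without overlap between groups and at 50 or more normalized counts where higher, by largest change (10 each way for WT HFD against WT chow, 5 elsewhere), those in 3 or 4 tables, the role lists and the 10 highest by FPKM. Further members named beside a run of neighbours or a count were chosen after their values were seen, as was the promoter motif. C2H2 fingers were counted in translated GENCODE transcripts, and the KRAB pattern required 6 of 8 letters of the A box within the first 200 residues.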

Additional observations from a re-analysis of the deposited data

Results flagged for a closer look

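Of 8 Zfp genes with values in all 12 libraries, 7 were called in edgeR's test of whether the effect of TET2 KO differed between chow and HFD. All 975 genes tested had entered by being listed for a difference in these same libraries. Of them 56.4% were called (55.3% after Benjamini-Hochberg adjustment over these 975 only), so the calls are not independent of the selection. The log2 interaction was 1.36 for Zfp619 and 1.13 for Zfp597. It was 0.75 for Zfp408. It was -1.01 for Zfp760 and -1.02 for Zfp984. Zfp931 gave -1.22, and Zfp105 gave -1.39, the furthest from 0 of the 7. Each was called under all 12 fits leaving out 1 library, and also with DESeq2, with limma and with the replicate block, where the number called was 7 each time. All these fits reuse the libraries that selected the genes, so the unchanged number is no independent support.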

How the results depend on the processing

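Many members lie under 100 normalized counts, each group holds 3 mice, and depth as a limit was not tested. Counts of called members for TET2 KO chow against WT chow (9), WT HFD against WT chow (97), TET2 KO HFD against WT HFD (57) and TET2 KO HFD against TET2 KO chow (9) became 0, 10, 0 and 0 at an adjusted p under 0.05 and 0, 22, 10 and 1 with a 2-fold change required. Leaving out 1 library gave 1 to 11, 58 to 81, 18 to 52 and 2 to 6, and for the interaction 7 to 7. The median log2 fold changes then ran from -0.0505 to 0.34, from 0.32 to 0.43, from -0.52 to -0.39 and from -0.49 to -0.41. DESeq2 called 14 members in TET2 KO chow against WT chow, a count that the listing by the authors' DESeq2 test nearly fixed. TMM scaling moved the median for TET2 KO HFD against TET2 KO chow to -0.22. The replicate block gave 3, 75, 56 and 7 calls. Same-numbered libraries deviated together only weakly (correlation -0.10 to 0.18, over 0.1 in 3 of 12 pairs). Differently numbered libraries ran from -0.35 to 0.29. With 3 mice per group these values cannot tell whether the numbers pair the mice, which stayed unknown. The single reversal was Zfp811 in TET2 KO chow against WT chow, which ran from -0.0505 without TET2 KO chow replicate 1 to 2.16 without replicate 2. Over 95 values of 50 named genes, 998 of 1235 alternative values kept direction and call, 180 lost the call, 56 gained it and 1 reversed. For values that changed, the cause was not tested.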
